A study of Homo sapiens with 20 samples.

Results

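Extrinsic cell death starts at the cell surface. Death receptors of the tumour necrosis factor receptor family bind a trimeric ligand and recruit the adaptor FADD, which brings in caspase-8, a protease that starts the caspase cascade. The catalytically inactive homologue c-FLIP, encoded by CFLAR, competes with caspase-8 in this complex, and decoy receptors bind the ligand without a working death domain. Caspase-1 belongs to another branch, the inflammasome, in which it cleaves pro-interleukin-18, pro-interleukin-1 beta and gasdermin D.

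The 8 genes described here are the TRAIL receptors TNFRSF10A (DR4) and TNFRSF10B (DR5), the decoy receptor TNFRSF10D (DcR2), the Fas receptor FAS, the TRAIL ligand TNFSF10, CFLAR, CASP8 and CASP1. They were taken by name from the 60271 genes of the count table, which listed all 8, and all 8 were among the 16522 genes tested. MDA-MB-468 is a triple negative, epithelial breast cancer line with high levels of the epidermal growth factor receptor (EGFR), in which EGF is used to induce an epithelial-mesenchymal transition. Serum-starved cells were left without EGF (control) or were kept with EGF at 50 ng/mL over the last 12, 24, 48 or 72 h before harvest, and each of the 5 groups had 4 biological replicates, 20 libraries in all. Every group had been starved of serum for 24 h before the first EGF was added, and the groups were seeded and harvested together, so that they differed in how long they had EGF. The same 4 control libraries serve all 4 times, so the comparisons with the control are not independent of each other.

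The libraries held 15611961 to 25856953 counts. Levels are given in CPM, the count of a gene relative to the library's total after TMM scaling, which evens out differences in composition between libraries, with the SD over 4 libraries. Each adjusted p comes from the quasi-likelihood test of edgeR, adjusted by Benjamini and Hochberg's procedure over the 16522 genes, and a gene is called where it lies below 0.05. The mean share of mitochondrial counts was 10.9% in the control and 9.43, 12.4, 12.5 and 15.1% at 12, 24, 48 and 72 h. All 5 epithelial markers were detected in every group, and of the receptors that define the triple negative class, PGR was at 0 counts in every library while ESR1 (5.03 CPM in the control) and ERBB2 (21.5 CPM) were detected. Of 5 leukocyte markers, PTPRC had 0 to 8 counts and CD3E 0 to 2 counts in any library, while CD68 had a mean of 1.15 CPM without EGF and of 14.6 to 26.7 CPM with it. CD14 had 2.98 CPM in control cells and 1.11, 2.32, 5.44 and 4.36 CPM at the 4 times, and LYZ 0.401 CPM and 0.489 to 1.37 CPM. The summed level of these 5 markers was 4.22 to 5.13 CPM in the control libraries and 29.4 to 34.2 CPM at 72 h, most of it from CD68. A single fibroblast marker of 4, COL1A1, passed the filter on low counts, with 6.18 CPM in the control group and 13.9 CPM after 72 h. PECAM1, the 1 endothelial marker of 3 that passed, had 2.31 CPM in control cells, 0.374 CPM after 12 h of EGF and 2.99 to 4.20 CPM later. The part of these markers in the results below was not tested. In RNA from whole wells, fewer cells that express a gene and less of its RNA per cell cannot be told apart.

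Promoters are shown for 3 of the genes, because they are a receptor that rose, the ligand that fell and a caspase that moved little. They are RefSeq promoters (GRCh38.p14), 5′ to 3′ on the strand of the gene, from 250 bases before to 50 bases after the annotated start, and capitals mark matches to the motifs searched.
FAS, chr10:88990548-88990847, plus strand: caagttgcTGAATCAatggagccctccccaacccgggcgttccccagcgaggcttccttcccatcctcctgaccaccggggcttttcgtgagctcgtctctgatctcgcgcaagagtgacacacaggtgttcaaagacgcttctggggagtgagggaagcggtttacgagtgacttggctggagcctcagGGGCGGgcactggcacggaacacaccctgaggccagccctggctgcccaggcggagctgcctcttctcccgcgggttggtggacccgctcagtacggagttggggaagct
TNFSF10, chr3:172523381-172523680, minus strand: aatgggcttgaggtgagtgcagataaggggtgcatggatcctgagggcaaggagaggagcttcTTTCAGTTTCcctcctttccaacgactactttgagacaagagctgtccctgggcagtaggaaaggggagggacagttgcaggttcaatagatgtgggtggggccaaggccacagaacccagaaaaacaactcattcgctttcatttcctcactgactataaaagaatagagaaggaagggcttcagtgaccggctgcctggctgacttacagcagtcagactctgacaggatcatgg
CASP8, chr2:201233213-201233512, plus strand: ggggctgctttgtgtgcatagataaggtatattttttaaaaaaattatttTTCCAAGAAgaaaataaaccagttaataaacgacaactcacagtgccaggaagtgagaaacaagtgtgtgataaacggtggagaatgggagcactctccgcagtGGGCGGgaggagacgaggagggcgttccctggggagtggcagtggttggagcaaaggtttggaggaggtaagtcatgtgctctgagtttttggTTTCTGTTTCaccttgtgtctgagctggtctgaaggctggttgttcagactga

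The motifs were AP-1 (TGANTCA), the core of the interferon-stimulated response element (GAAA, any 2 bases, GAAA), the GAS element (TTCNNNGAA), the GC box (GGGCGG) and the NF-kappaB consensus, each searched on both strands. The promoter of TNFSF10 held 1 match, an interferon response core 187 bases before the start, a motif found in 3.57% of 35116 promoters. CASP8 held the same core 3 bases before the first of its 3 listed starts, with a GAS element and a GC box, which were found in 7.66% and 45% of all promoters. The first FAS promoter held an AP-1 match 242 bases before the start, against 7.71% of all promoters, and a GC box 60 bases before it. Promoters of 4 of the 8 genes were listed, 11 in all, and 4 of the 11 held AP-1, while 2 of the 11, of FAS and CFLAR, held NF-kappaB (11.3% of all promoters). A match is a run of letters and not a measured binding site.

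EGF raised the 4 receptors at 12, 24 and 72 h and 3 of them at 48 h, and lowered the ligand at every time. At 12 h, 7 of the 8 genes were called, 4 higher and 3 lower, where 69.4% of all genes tested were called, 32.9% higher and 36.5% lower. At 24 h the count was again 7, with 4 higher and 3 lower, beside 58.8% of all genes (29.2% higher, 29.6% lower). At 48 h it was 5, with 3 higher and 2 lower, beside 45.8% (24.0% higher, 21.8% lower). At 72 h it was 5, with 4 higher and 1 lower, beside 61.6% (30.6% higher, 31.0% lower). Most genes of this cell line thus passed the same test at 12, 24 and 72 h, and the counts alone do not set the 8 genes apart. Their median log2 fold change was 0.50, 0.27, 0.18 and 0.39 at the 4 times, beside -0.05, -0.01, 0.01 and -0.01 over all genes. At 12 h the receptors changed by 1.03 to 2.06 and the other members by -1.78 to -0.03. The median falls between these and describes no single gene, and a shift of the 8 genes as a set was not tested.

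**Figure D1:**
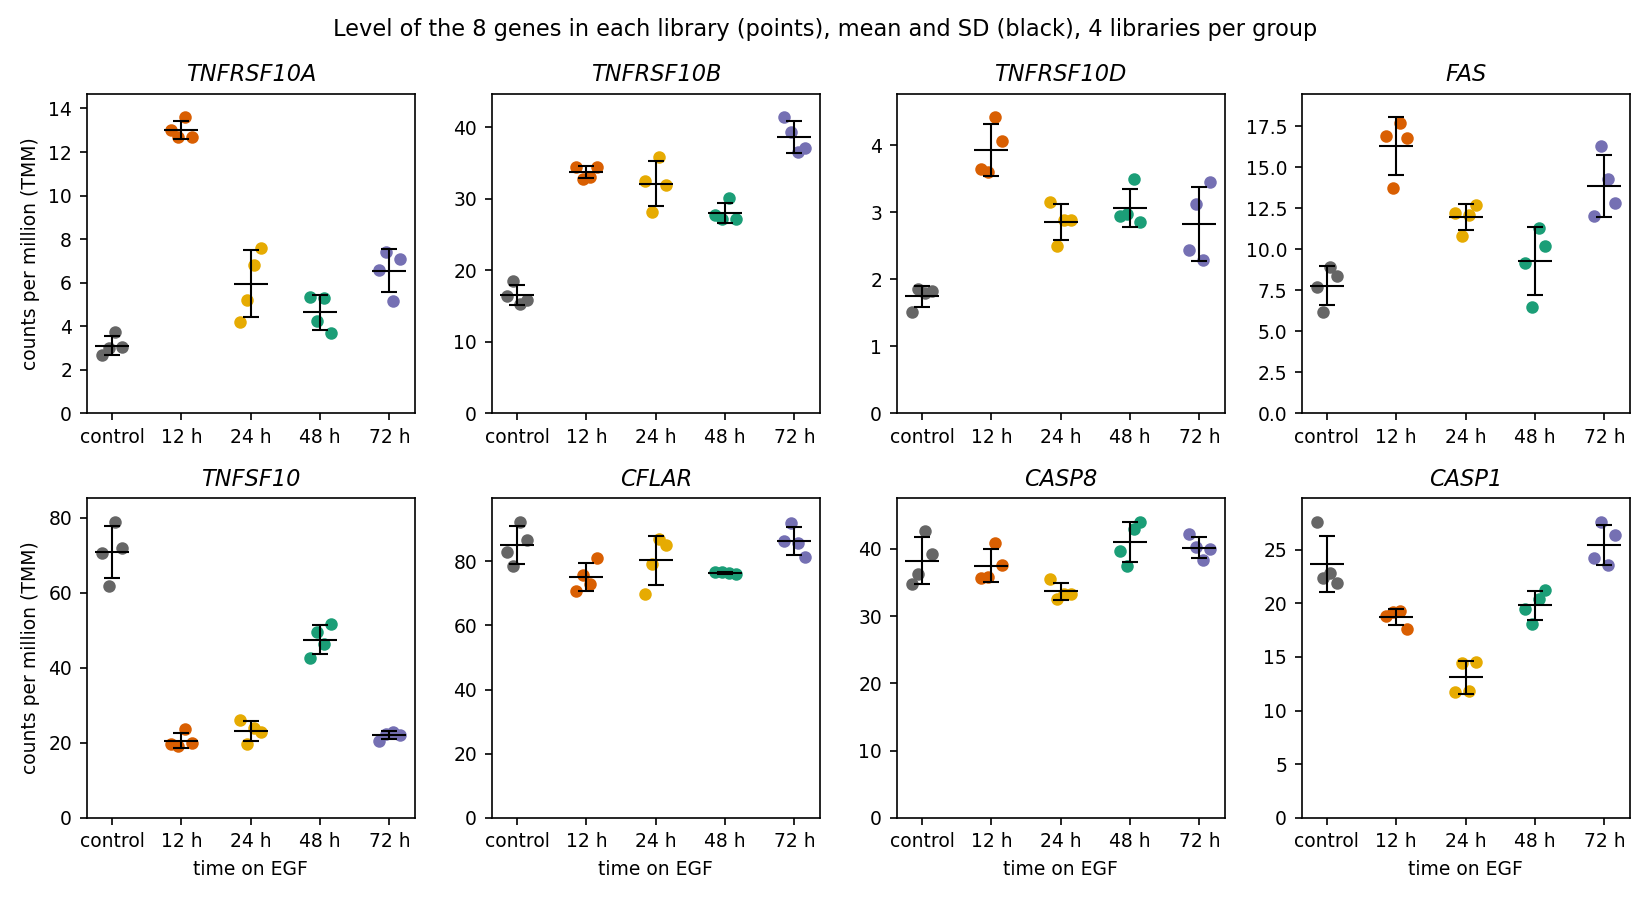
Level of each of the 8 genes in CPM (vertical axis, from 0) in the 5 groups (horizontal axis), with 1 point per library and the mean ± SD of 4 libraries in black. The receptors stand lowest in the control, TNFSF10 falls from 70.8 to 20.6 CPM at 12 h and stands between at 48 h, and CASP1 is lowest at 24 h.

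**Figure D2:**
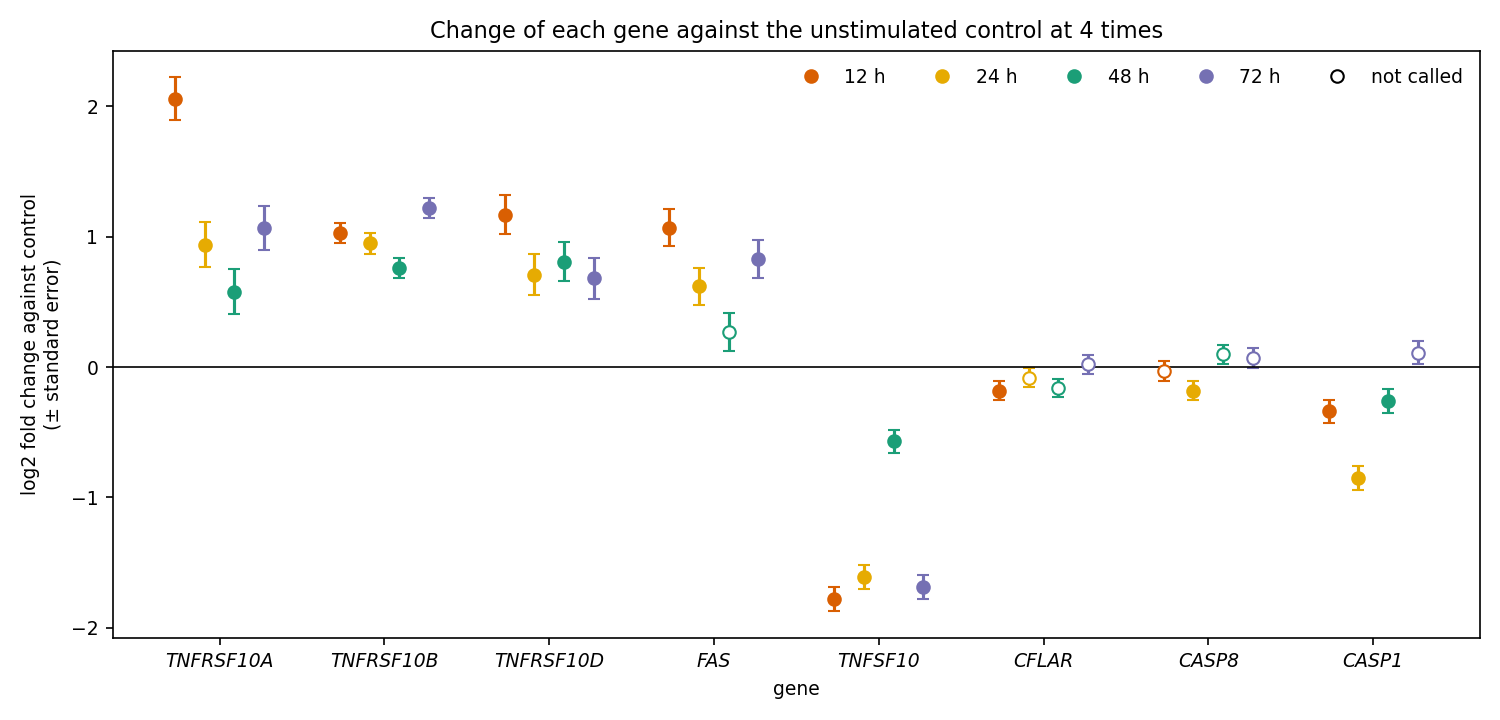
Log2 fold change of each gene against the control at 12, 24, 48 and 72 h (points, bars ± 1 standard error), with open points for changes that were not called. The changes of TNFRSF10A and TNFSF10 at 12 h are 2.06 and -1.78, while all those of CFLAR and CASP8 lie between -0.18 and 0.10.

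TNFRSF10A, a death domain receptor for TRAIL (chromosome 8, 23190452 to 23225126, minus strand, 11 merged exons, GENCODE 29 on GRCh38), had the largest rise among the 8 genes, 4.18-fold at 12 h. Its control libraries were at 2.66, 2.99, 3.71 and 3.03 CPM. At 12 h they were at 13.0, 12.7, 13.6 and 12.7 CPM, so that the lowest EGF library was well above the highest control. The rise was 2.06 on the log2 scale (standard error 0.163, edgeR adjusted p = 7.48e-11). By 24 h the libraries had come down to 4.20, 5.20, 6.80 and 7.61 CPM, still above every control and all below every 12 h library (log2 fold change against 12 h -1.13, edgeR adjusted p = 2.04e-06). At 48 h they were at 5.32, 4.25, 5.28 and 3.67 CPM, and 3 of the 4 stood above all controls. The 48 h mean of 4.63 ± 0.808 CPM was 1.49-fold the control (edgeR adjusted p = 0.00797). At 72 h the values were 6.59, 7.40, 5.14 and 7.09 CPM, all above the controls, 2.11-fold on average (edgeR adjusted p = 6.67e-06). In the order of the levels, 72, 24 and 48 h followed 12 h, and neither 72 and 24 h (adjusted p = 0.519) nor 24 and 48 h (adjusted p = 0.0708) differed past the threshold in edgeR's test. The step from 48 to 72 h (0.50, edgeR adjusted p = 0.0188) was lost without EGF 48 h replicate 4 (adjusted p = 0.0740) or EGF 72 h replicate 2 (adjusted p = 0.0622), and with the scaling per gene described for CFLAR below (0.18, adjusted p = 0.693). The step from 24 to 48 h was called without EGF 24 h replicate 1 (-0.50, adjusted p = 0.0105) or EGF 48 h replicate 3 (-0.44, adjusted p = 0.0461).

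AC100861.1, a gene on the opposite strand, shares 9.01% of the exon bases of TNFRSF10A and has more counts (a mean of 191 a library against 131.1). Since the strand setting of the counting is not given in the sources used here, reads from the shared stretch cannot be assigned with certainty. AC100861.1 itself had 8.48 ± 0.255 CPM in control cells and 7.30 ± 0.572 CPM after 12 h of EGF, where TNFRSF10A was highest.

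TNFRSF10B, the other death domain receptor for TRAIL (chromosome 8, 23020133 to 23069179, minus strand, 10 merged exons), rose to about the same level at 12 and 24 h and highest at 72 h. The controls were at 16.4, 18.5, 15.3 and 15.9 CPM, and the 12 h libraries at 34.4, 32.8, 33.1 and 34.4 CPM. At 24 h they were at 32.5, 28.1, 35.8 and 31.9 CPM and at 48 h at 27.7, 27.2, 30.1 and 27.2 CPM. At 72 h they reached 41.4, 39.3, 36.6 and 37.1 CPM. All 16 EGF libraries lay above all 4 controls, and those at 72 h lay above every library of the other times. The log2 fold changes were 1.03, 0.95, 0.76 and 1.22 with standard errors of 0.0781 to 0.0784, and the edgeR adjusted p ran from 2.13e-12 at 72 h to 2.49e-08 at 48 h. The level at 72 h was higher than at 12 h (0.20, adjusted p = 0.0245), 24 h (0.27, adjusted p = 0.00615) and 48 h (0.46, adjusted p = 4.26e-05) in edgeR's test, whereas 12 and 24 h did not differ past the threshold (-0.07, adjusted p = 0.434). The dip from 24 to 48 h was called (-0.19, edgeR adjusted p = 0.0412), and leaving out any of EGF 24 h replicates 1, 3 and 4 or EGF 48 h replicates 1, 2 and 4 ended the call, with an adjusted p of 0.0658 to 0.157, as did scaling by total count (-0.04, adjusted p = 0.732) or by upper quartiles (-0.13, adjusted p = 0.189).

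TNFRSF10D, the decoy receptor that binds TRAIL but has a truncated death domain (chromosome 8, 23135588 to 23164030, minus strand, 9 merged exons), was the receptor with the lowest level. Its controls were at 1.51, 1.85, 1.79 and 1.83 CPM, which rose to 3.64, 3.60, 4.42 and 4.06 CPM at 12 h. Later libraries ranged from 2.29 to 3.49 CPM, and all 16 EGF libraries were above all 4 controls. The changes were 1.17, 0.71, 0.81 and 0.68 on the log2 scale with standard errors of 0.151 to 0.156 (edgeR adjusted p = 3.10e-07, 4.17e-04, 1.25e-04 and 5.91e-04). The 12 h level stood above that at 48 h (edgeR adjusted p = 0.0326), the next in order, and the levels at 48, 24 and 72 h could not be told apart (edgeR adjusted p = 0.579 and 0.903 for the neighbours). From 12 to 24 h the level came down (-0.46, edgeR adjusted p = 0.0111), a call that was lost with scaling by total count (-0.32, adjusted p = 0.0773) or by upper quartiles (-0.34, adjusted p = 0.0546). The decoy without an intracellular domain, TNFRSF10C, had 0 to 12 counts in any library and was not tested.

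FAS, the receptor for Fas ligand (chromosome 10, 88990582 to 89015785, plus strand, 13 merged exons), rose at 12, 24 and 72 h. Its controls were at 7.69, 6.14, 8.92 and 8.36 CPM and its 12 h libraries at 16.9, 13.7, 17.7 and 16.8 CPM, a 2.10-fold rise (1.07, standard error 0.142, edgeR adjusted p = 4.32e-07). At 24 h the libraries were at 12.2, 10.8, 12.1 and 12.7 CPM (1.54-fold, edgeR adjusted p = 7.03e-04), again above every control. The 48 h libraries were at 9.14, 6.50, 11.3 and 10.2 CPM and overlapped the controls, and their change of 0.27 was not called (edgeR adjusted p = 0.138). That result rests on EGF 48 h replicate 2, without which it was 0.40 (edgeR adjusted p = 0.0150). At 72 h the values were 12.0, 16.3, 14.3 and 12.8 CPM (1.78-fold, edgeR adjusted p = 2.26e-05), clear of the controls and higher than at 48 h (0.57, edgeR adjusted p = 0.00288). The first step down, from 12 to 24 h, was called (-0.45, edgeR adjusted p = 0.00923), and so was that from 24 to 48 h (-0.36, edgeR adjusted p = 0.0404), which was lost without EGF 24 h replicate 1, 3 or 4 or EGF 48 h replicate 1 or 2 (adjusted p = 0.0687 to 0.168). Scaling by total count ended both calls (-0.30, adjusted p = 0.0716, and -0.20, adjusted p = 0.257), and upper quartiles ended the second (-0.30, adjusted p = 0.0705). ACTA2 shares 8.93% of the exon bases of FAS on the opposite strand, with a mean of 25.4 counts a library against 235.3 for FAS. Fas ligand (FASLG) had 0 counts in all 20 libraries.

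The mean ratios between receptors differed between groups, but no ratio passed the threshold after adjustment. Within a library, the count of TNFRSF10B was 5.44 ± 0.977 times that of TNFRSF10A in the control and 2.59 ± 0.116 times at 12 h, and the ranges of 4.13 to 6.20 and 2.44 to 2.71 did not overlap. At 24, 48 and 72 h the ratio was 5.65 ± 1.49, 6.18 ± 0.954 and 5.99 ± 0.899, each range overlapping that of the control. With 4 libraries against 4, an exact two-sided permutation test cannot go below 0.0286, the value at 12 h, and adjusted over the 16 ratios tested it was 0.152. A ratio could pass after adjustment only if most of the 16 reached this lowest value, so a ratio that did not pass is not shown to be unchanged. The ratio of TNFRSF10B to TNFRSF10D was 9.54 ± 1.12 in the control and 14.1 ± 2.94 at 72 h, with ranges of 8.55 to 10.9 and 10.8 to 17.1 (exact permutation p = 0.0571, adjusted 0.183). These ratios are the same under any scaling that uses 1 factor per library.

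**Figure D3:**
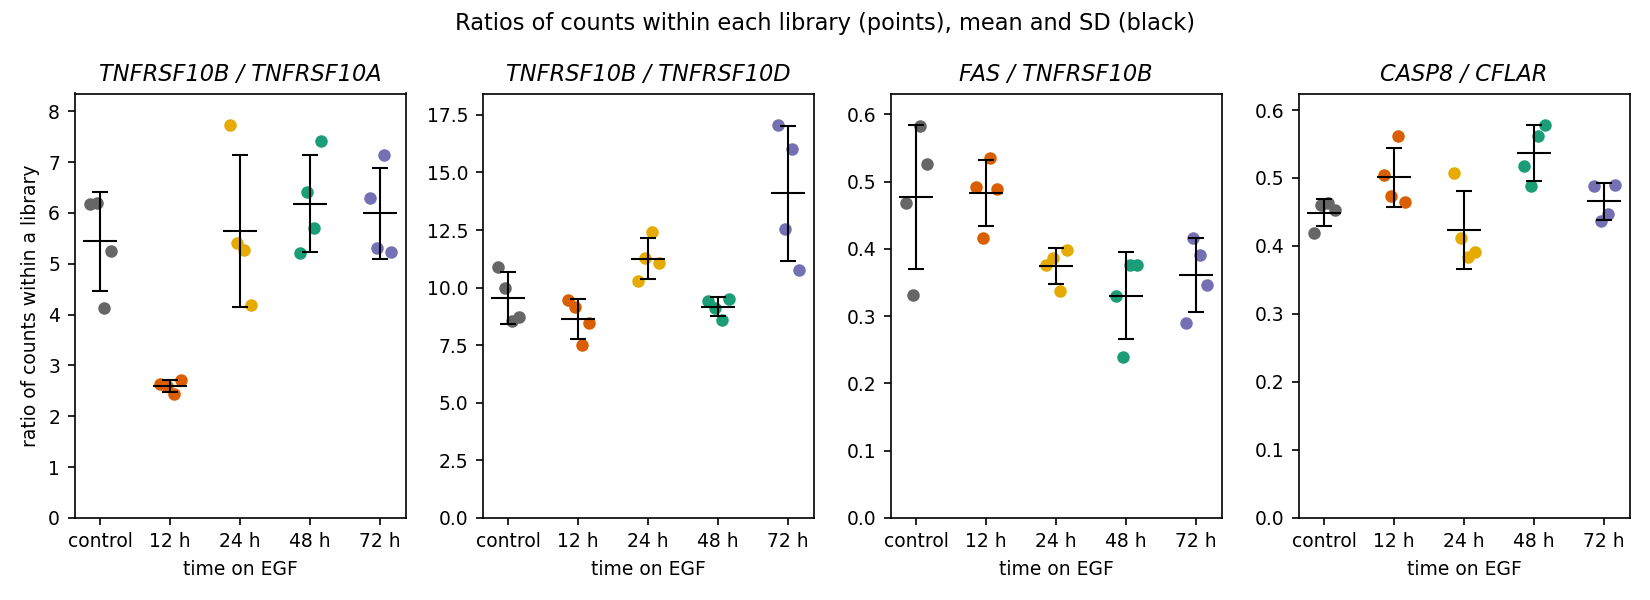
Ratio of the counts of 2 genes within a library (vertical axis, from 0) in the 5 groups, 1 point per library, with mean ± SD of 4 libraries in black. The mean ratio of TNFRSF10B to TNFRSF10A is 5.44 in the control, 2.59 at 12 h and 5.65 at 24 h.

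TNFSF10, which encodes TRAIL, the ligand of the receptors above (chromosome 3, 172505508 to 172523507, minus strand, 7 merged exons), fell at every time. The controls were at 70.5, 61.9, 78.9 and 71.9 CPM. At 12 h the libraries were at 19.6, 19.2, 23.6 and 19.9 CPM, a 3.44-fold drop, and at 24 h they were at 26.2, 19.7, 24.0 and 22.9 CPM. All 8 lay far below the lowest control. At 48 h the level was between these, with 42.6, 49.6, 46.2 and 51.7 CPM. At 72 h it was again low, with 20.5, 22.3, 23.0 and 22.2 CPM. Its log2 fold changes were -1.78, -1.61, -0.57 and -1.69 (standard errors 0.0882 to 0.0930, edgeR adjusted p = 4.07e-14, 3.76e-13, 1.04e-05 and 1.23e-13), with all 16 EGF libraries below all 4 controls. The 48 h level was 2.05 times that at 24 h (edgeR adjusted p = 3.63e-09), and the 72 h level was 2.16-fold lower than at 48 h (edgeR adjusted p = 2.17e-09). The levels at 24, 72 and 12 h did not differ past the threshold between neighbours (edgeR adjusted p = 0.534 and 0.390). The small difference of 24 h against 12 h (0.17, edgeR adjusted p = 0.126) was called without EGF 12 h replicate 3 (0.24, adjusted p = 0.0447) or EGF 24 h replicate 2 (0.24, adjusted p = 0.0393), and also when libraries were scaled by total count (0.32, adjusted p = 0.00727) or by upper quartiles (0.29, adjusted p = 0.0105).

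CFLAR, the c-FLIP gene (chromosome 2, 201116104 to 201176687, plus strand, 20 merged exons), had nearly level TMM-scaled values over the groups. As CPM of the unscaled library total its means were 91.0 in the control and 66.0, 77.7, 82.3 and 87.7 at 12, 24, 48 and 72 h. The controls were at 83.0, 78.5, 92.3 and 86.5 CPM and the 12 h libraries at 70.8, 75.6, 72.9 and 81.1 CPM, with 3 of the 4 below every control. The other EGF libraries were between 69.9 and 91.8 CPM. Its change of -0.18 at 12 h was called (standard error 0.0703, edgeR adjusted p = 0.0265), and without any of control replicates 3 and 4 or EGF 12 h replicates 1, 2 and 3 the call ended (adjusted p = 0.0501 to 0.102). At 24, 48 and 72 h the changes were -0.08, -0.16 and 0.02 (edgeR adjusted p = 0.317, 0.0729 and 0.801), and that at 48 h was called without control replicate 2 (-0.19, adjusted p = 0.0306). The change at 24 h was called lower when libraries were scaled by total count (-0.23, adjusted p = 0.00822).

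The direction for CFLAR depended on the scaling. The normalized values deposited beside the counts differ from them by a factor for each gene and library, whose origin is not given in the sources used here. For CFLAR this factor, relative to the whole library, was 1.57 ± 0.0869 in the control and 0.897 ± 0.0247, 0.805 ± 0.0169, 1.06 ± 0.0881 and 0.835 ± 0.0349 at 12, 24, 48 and 72 h, with no overlap between the control and any EGF group. The deposited normalized values of CFLAR were accordingly 1084 ± 129 in the control and 1672 ± 119, 1991 ± 198, 1446 ± 125 and 2065 ± 118 in the EGF groups. With these factors the log2 fold changes were 0.62, 0.88, 0.42 and 0.93 (edgeR adjusted p = 7.73e-06, 1.70e-07, 0.00175 and 6.87e-08), so that CFLAR was higher at all 4 times instead of slightly lower or not called. No direction can therefore be given for CFLAR from these files. Against the control the other 7 genes kept their signs, except CASP8 at 12 h, which was called under neither scaling (-0.03 and 0.06). In CFLAR, 3.45% of the exon bases are shared with CFLAR-AS1 and 6.6% with IMPDH1P10, both on the opposite strand, with means of 16.6 and 1 counts a library against 1625.

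**Figure D4:**
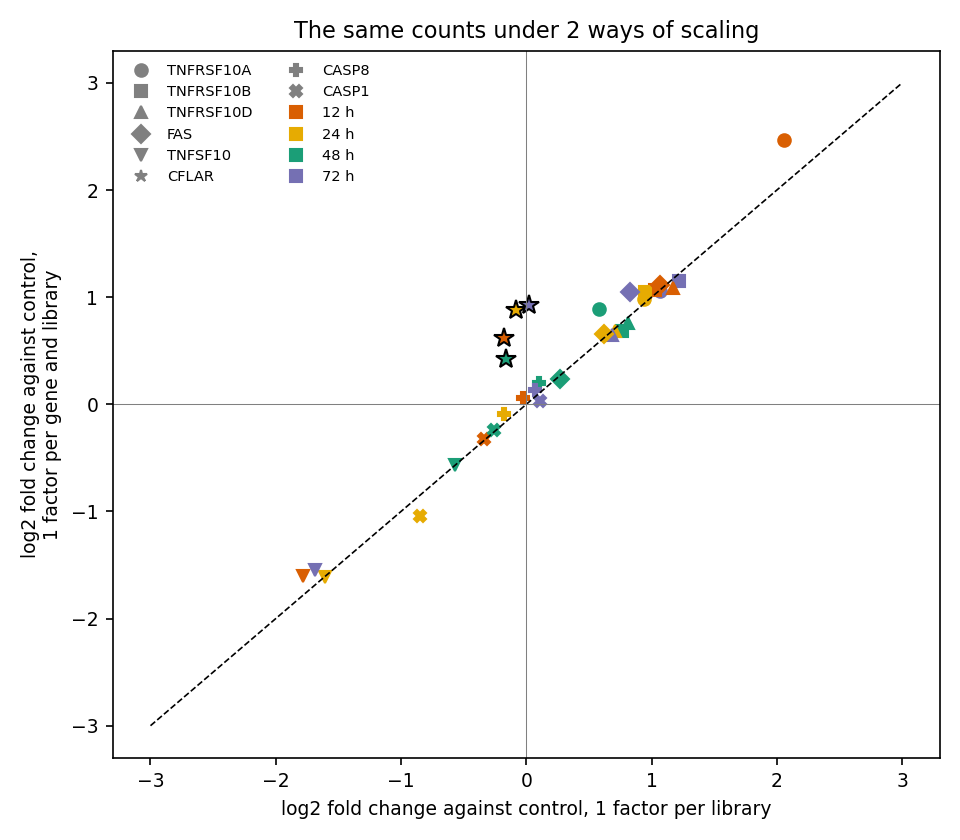
Log2 fold change of each gene (symbols) against the control at each time (colours), with 1 scaling factor per library (horizontal axis) and with the deposited factors per gene and library (vertical axis). CFLAR (outlined stars) lies between -0.18 and 0.02 on the horizontal axis and between 0.42 and 0.93 on the vertical axis, while the other genes lie nearer to the dashed line of equality.

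CASP8, the initiator caspase of the death receptor complex (chromosome 2, 201233443 to 201287711, plus strand, 17 merged exons), stayed within a narrow range. Its controls were at 34.8, 36.2, 42.7 and 39.2 CPM. The 24 h libraries were at 35.5, 32.5, 33.3 and 33.3 CPM and those at 12, 48 and 72 h between 35.7 and 44.0 CPM. The change at 24 h was called lower (-0.18, standard error 0.0739, edgeR adjusted p = 0.0367), but without control replicate 3 or 4, or EGF 24 h replicate 2, 3 or 4, the adjusted p was 0.0740 to 0.156, and with the factors per gene it was 0.443 (-0.09). The group means ran from 33.7 ± 1.27 CPM at 24 h to 41.0 ± 2.99 CPM at 48 h, all 4 libraries of 48 h above all of 24 h (0.28, edgeR adjusted p = 0.00267). At 12 h its change was -0.03 (edgeR adjusted p = 0.744), and it was called lower when libraries were scaled by total count (-0.31, adjusted p = 6.73e-04) or by upper quartiles (-0.19, adjusted p = 0.0149). The ratio of CASP8 to CFLAR counts was 0.449 ± 0.0202 in the control, 0.501 ± 0.0438 at 12 h and 0.537 ± 0.0409 at 48 h, both above the control range of 0.419 to 0.463 (exact permutation p = 0.0286 each, adjusted 0.152), and it is a ratio of counts to which the limit on CFLAR applies.

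CASP1, the inflammatory caspase (chromosome 11, 105025443 to 105035250, minus strand, 8 merged exons), fell, was lowest at 24 h and was back at the control level by 72 h. The controls were at 27.6, 22.4, 22.8 and 21.9 CPM and the 12 h libraries at 18.8, 19.2, 19.3 and 17.6 CPM. At 24 h the values were 11.7, 14.4, 11.8 and 14.5 CPM, all below every other library of the study. They were 19.5, 18.1, 20.4 and 21.2 CPM at 48 h and 24.2, 27.6, 23.6 and 26.4 CPM at 72 h, where they overlapped the controls. The changes were -0.34, -0.85 and -0.26 at 12, 24 and 48 h (standard errors 0.0901 to 0.0933, edgeR adjusted p = 0.00216, 3.42e-08 and 0.0221) and 0.11 at 72 h (edgeR adjusted p = 0.318). From 24 h on, both steps up were called (0.60 to 48 h, adjusted p = 1.41e-05, and 0.36 to 72 h, adjusted p = 0.00292, in edgeR's test), and the level at 72 h was 1.94 times that at 24 h (edgeR adjusted p = 2.25e-08). The 48 h call was lost without control replicate 1 (-0.18, adjusted p = 0.110) or EGF 48 h replicate 2 (-0.22, adjusted p = 0.0731). With the factors per gene, the calls at 12 h (-0.32, adjusted p = 0.278), at 48 h (-0.24, adjusted p = 0.491) and for the step from 48 to 72 h (0.27, adjusted p = 0.462) were lost, and that at 24 h was kept (-1.04, adjusted p = 0.00187). CARD16, a neighbouring gene that encodes a caspase recruitment domain alone, shares 2.36% of the 75-base words of CASP1 transcripts, so part of the reads could be counted for either.

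The steps between successive times differed between the genes. From 12 to 24 h, 4 of the 8 genes were called, all lower (TNFRSF10A, TNFRSF10D, FAS and CASP1), beside 53.7% of all genes tested (27.9% higher, 25.9% lower). From 24 to 48 h, 5 were called, with TNFRSF10B and FAS lower and TNFSF10, CASP8 and CASP1 higher, beside 50.2% (25.9% higher, 24.3% lower). From 48 to 72 h, 5 were called, with TNFSF10 lower and TNFRSF10A, TNFRSF10B, FAS and CASP1 higher, beside 35.7% (17.9% in each direction). For 48 against 12 h and 72 against 12 h, 5 genes were called in each, beside 70.3 and 67.6%, and for 72 against 24 h 3 were called, beside 40.2%. At 48 h, TNFRSF10A, TNFRSF10B and FAS had their lowest mean among the EGF groups and TNFSF10 its highest.

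Levels of different genes were compared only per kilobase of merged exons. In the control, TNFSF10 was highest at 20.4 CPM per kb, followed by CASP1 (6.41), CASP8 (5.28), CFLAR (3.78), TNFRSF10B (3.21), FAS (1.83), TNFRSF10A (1.05) and TNFRSF10D (0.493). With the exons of basic coding transcripts alone, CASP8 (9.71 CPM per kb) stood above CASP1 (8.88 CPM per kb) and the rest kept this order. For CFLAR, 85.1 CPM was divided by 22529 bases of merged exons, or by 20637 bases with the basic ones. For TNFSF10, 70.8 CPM was divided by 3473 or 1953 bases. The lengths used for CFLAR are close, so the basic exons are no independent check of its place. Which length holds in these cells was not tested, and the limit on the scaling of CFLAR applies here too. At 72 h the level per kb of TNFRSF10B (7.48) was above that of its ligand (6.34) with all exons and below it with the basic ones (9.31 and 11.3), so their order is not settled by these data.

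The genes whose levels were most like each member over the 20 libraries, among those with a mean of at least 10 CPM, are given as a description, since the libraries share groups and scaling. For TNFRSF10A they were NABP1 and F3, tissue factor (Pearson's r 0.97 each), and for TNFRSF10B they were NRP2 and KRT34 (0.98 each). For TNFRSF10D, CYTH3 (0.92) and ADGRF4 (0.90) came first, and for FAS, USP53 and GALNT3 (0.96 each). TNFSF10 was most like TAF9B (0.99) and FAM120C (0.98). CASP1 was most like CARD16 (0.91) and PNRC1 (0.89), and CASP8 was most like ITGB6 (0.83) and PNRC1 (0.82). The highest values for CFLAR were lower, 0.85 for ATP9B and 0.77 for RTN3. Among the members, the 4 receptors had r of 0.71 to 0.84 with each other and of -0.67 to -0.89 with TNFSF10.

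Of 76 other genes of the same pathways, 63 could be tested. At 12 h 29 were higher and 12 lower, at 24 h 21 and 17, at 48 h 18 and 9, and at 72 h 32 and 10. These are 46.0, 33.3, 28.6 and 50.8% higher and 19.0, 27.0, 14.3 and 15.9% lower, to be read against the shares over all genes given above.

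Among the receptors and decoys outside the 8 genes, 4 of 6 tested were higher and 1 lower at 12, 24 and 72 h, and 2 higher and 1 lower at 48 h. TNFRSF11B (osteoprotegerin), a soluble decoy that also binds TRAIL, had 0.259 ± 0.148 CPM without EGF and 4.17 ± 0.572 CPM after 12 h (a log2 rise of 3.97, edgeR adjusted p = 7.05e-09) and was at 0.521 ± 0.267 CPM at 48 h, where it was not called (0.97, adjusted p = 0.123). TNFRSF12A, the receptor for TWEAK, rose 3.97-fold at 12 h, from 23.2 ± 8.44 to 92.4 ± 5.57 CPM (edgeR adjusted p = 4.19e-09). TNFRSF21 (DR6) was highest at 12 h as well, at 343 ± 14.5 CPM against 92.2 ± 5.90 CPM (1.89 on the log2 scale, edgeR adjusted p = 1.34e-16). Of the other ligands, TNF had 0.259 ± 0.113 CPM without EGF and 0.239, 0.287 and 0.824 CPM at 12, 24 and 48 h. It reached 1.18 ± 0.156 CPM at 72 h (2.15, edgeR adjusted p = 3.30e-05).

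Below the receptors, 6, 4, 3 and 5 of 11 adaptors and regulators other than CFLAR were higher at the 4 times and none lower. FADD, the adaptor that joins receptor and caspase, had 13.2 ± 1.39 CPM without EGF and 25.5 ± 0.741 CPM after 12 h (0.95, edgeR adjusted p = 2.39e-10), and it was not called at the later times (adjusted p = 0.0834 to 0.747). TNFAIP3 (A20), a ubiquitin-editing enzyme that restrains NF-kappaB signalling, went from 5.00 ± 0.239 CPM to 44.4 ± 1.48 CPM at 12 h, 14.6 ± 3.50 CPM at 24 h and 56.0 ± 7.38 CPM at 72 h, an 11.2-fold rise (edgeR adjusted p = 4.24e-15). RBCK1, a subunit of the linear ubiquitin ligase, was called from 24 h on and was 2.89-fold higher at 72 h (edgeR adjusted p = 3.38e-12).

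Of 6 apoptotic caspases other than CASP8, 3, 3, 2 and 3 were lower at the 4 times. CASP10, the closest relative of CASP8, had 53.8 ± 1.46 CPM in control cells and 29.1 ± 1.65 CPM after 12 h (-0.88, edgeR adjusted p = 2.05e-10). It had 32.8 ± 3.94 CPM after 24 h (-0.71, edgeR adjusted p = 1.39e-08) and 53.2 ± 1.93 CPM after 48 h (-0.01, adjusted p = 0.884). After 72 h it was low again at 36.8 ± 1.82 CPM, with a range of 34.8 to 38.7 CPM against 52.8 to 55.9 CPM in the control. BID, which caspase-8 cleaves to link the receptors to the mitochondrion, was higher at 12 h (0.50, edgeR adjusted p = 9.68e-08), not called at 24 h and lower at 48 and 72 h (-0.37 and -0.39, edgeR adjusted p = 2.74e-05 and 6.87e-06). Among 7 inhibitors of apoptosis and their antagonists, 4, 3, 2 and 4 were higher and 1 was lower at each time, BIRC5. BIRC3 (cIAP2), a ubiquitin ligase of the tumour necrosis factor receptor complex, rose 4.98-, 3.70-, 3.10- and 4.04-fold (edgeR adjusted p = 5.70e-14 to 1.15e-10). BIRC5 (survivin), which also acts in cell division, fell to 33.6 ± 3.16 CPM from 108 ± 7.29 CPM by 72 h (-1.68, edgeR adjusted p = 5.12e-14).

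Next to CASP1, the inflammatory caspase CASP4 rose at all times, from 83.8 ± 8.19 CPM to 194 ± 8.23 CPM at 72 h (1.21, edgeR adjusted p = 1.23e-11). CARD16 was lower at 24 h (-0.93, edgeR adjusted p = 8.45e-07) and higher at 72 h (0.54, edgeR adjusted p = 3.07e-04). Of the 10 inflammasome and pyroptosis genes tested, 4, 5, 5 and 7 were higher and 2, 1, 0 and 2 lower. The lower calls were CARD8 at 12, 24 and 72 h (12.4, 17.1 and 20.4 CPM against 24.8 CPM in the control, edgeR adjusted p = 5.31e-11, 1.69e-06 and 0.00206), GSDME at 12 h (-1.05, adjusted p = 0.00896) and PYCARD, the inflammasome adaptor ASC, at 72 h (-0.51, adjusted p = 8.11e-04). IL18, a cytokine that caspase-1 cleaves, had 54.6 ± 7.24 CPM without EGF and 330 ± 7.68 CPM after 12 h (2.60, edgeR adjusted p = 1.76e-16), and GSDMB, a gasdermin, rose from 0.621 ± 0.267 CPM to 4.19 ± 0.747 CPM at 72 h (2.74, edgeR adjusted p = 7.63e-09). RIPK3, the kinase of necroptosis, had 0 counts in every library, while MLKL, its substrate, had 26.0 ± 1.32 CPM after 12 h against 7.68 ± 1.26 CPM without EGF (1.76, edgeR adjusted p = 4.38e-12).

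TNFSF10 is also known as an interferon-stimulated gene, and 13 such genes were tested. They did not move one way: at 12 h 5 were higher and 4 lower, at 24 h 1 and 9, at 48 h 3 and 3, and at 72 h 7 and 2. IFIT1, an RNA-binding antiviral protein, had 8.54 ± 1.25 CPM without EGF, 0.638 ± 0.204 and 0.471 ± 0.0937 CPM at 12 and 24 h and 3.56 ± 0.226 and 3.70 ± 0.542 CPM at 48 and 72 h, lower at every time (edgeR adjusted p = 1.01e-14 to 2.09e-07). IFI6 was called lower at 24 h (-2.09, edgeR adjusted p = 1.09e-06) and 48 h (-1.23, adjusted p = 4.01e-04). In contrast OAS1, which senses double-stranded RNA, was higher at every time (0.95, 1.11, 0.48 and 1.48, edgeR adjusted p = 6.61e-14 to 2.91e-05).

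**Figure D5:**
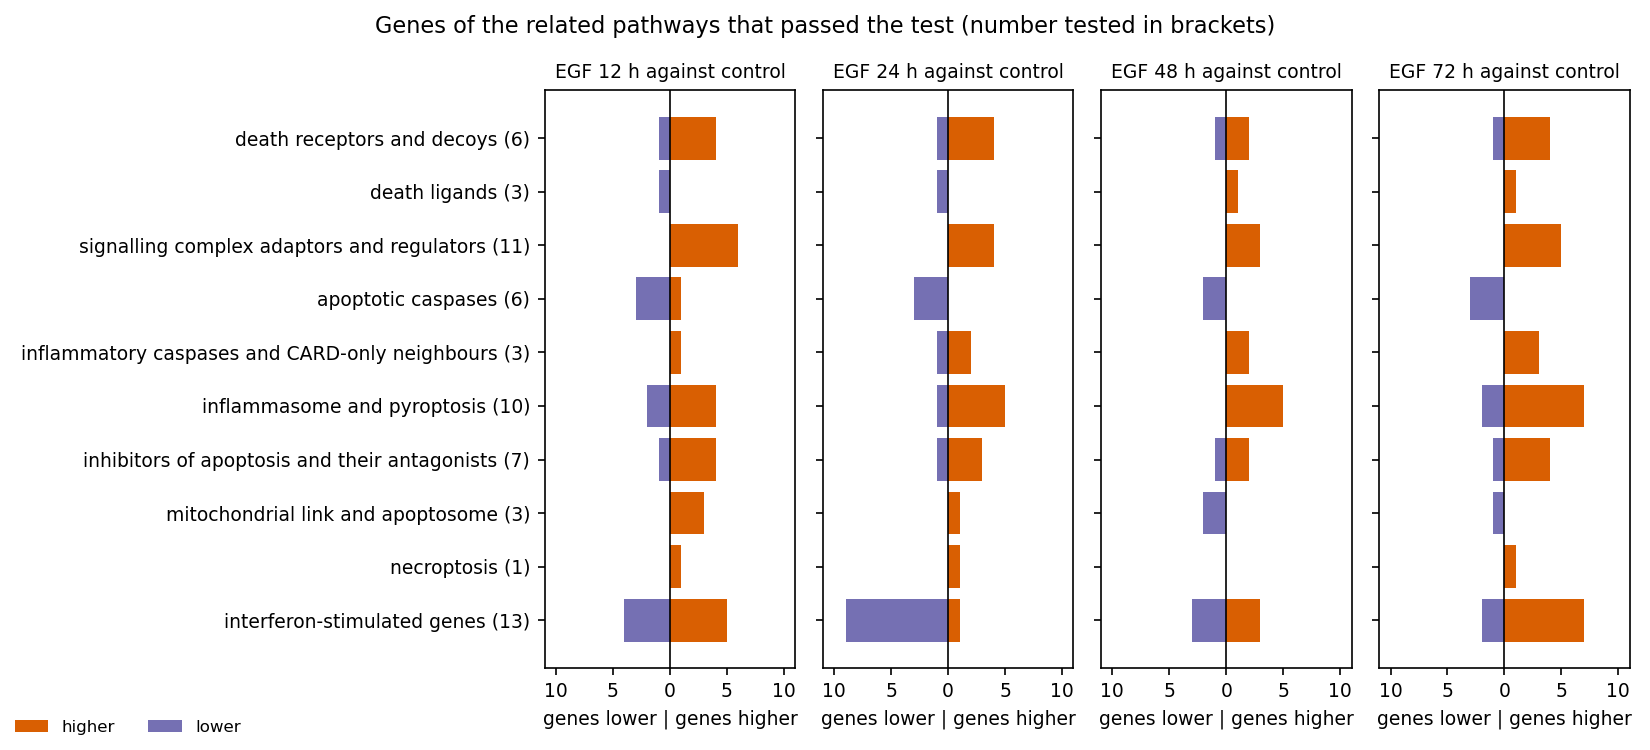
Number of genes of each related list, without the 8 members, that were called higher (right, orange) or lower (left, purple) against the control at each time, with the number tested in brackets. Interferon-stimulated genes are lower in 9 of 13 cases at 24 h and higher in 7 of 13 at 72 h, while adaptors and regulators are called in the higher direction.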

How the data were processed

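Per the labels and the study's methods, RNA of cells grown in separate wells was extracted, libraries were made with the Lexogen Corall mRNA kit, and the labels name 4 biological replicates per group; p-values measure the spread between these samples. The authors deposited 10 tables with the same estimated counts, which are whole numbers and not normalized, per gene and library, and normalized values, a score on the scale of counts made with DESeq2. The submitters' processing notes name hg38 and DESeq2; the aligner, counter, annotation, strand setting and use of molecular identifiers are not given in the sources used here. The tables also hold fold changes and p-values of the authors' comparisons, which were not used.

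The estimated counts, rounded as deposited, were analysed with edgeR 4.0.16, limma 3.58.1 and R 4.3.3. Genes were kept by filterByExpr (16522 of 33535 with a count), libraries were scaled by TMM, and group means of the 5 groups were estimated in a single fit to all 20 libraries with the robust quasi-likelihood test, Benjamini-Hochberg adjustment over all genes and a threshold of 0.05. Fold changes carry a prior count of 0.125. Depth per group ran from 15611961 to 25856953 counts, so that 1 CPM stood for at least 15.6 counts. On simulated counts for 12 h against the control over 15331 genes, 73 of 100 genes changed 1.5-fold and 93 of 100 changed 2-fold were recovered. In the simulation 13 unchanged genes were called. It changed only 100 genes at each fold, while 69.4% of genes were called at 12 h, so these rates need not hold for the data. In all 30 pairs of replicates, the variance of the differences was 3.78 to 65.4 times that of sampling noise. For this check the libraries were scaled by total count alone, so differences in composition are part of it.

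The 8 genes, the lists and the markers were chosen with earlier results of these data known. Named pathway genes were, per comparison with the control, the 6 with the largest absolute log2 fold change among those called, with a mean of at least 1 CPM and no overlap with the control; BID, CARD8, CARD16, CASP4, CASP10, FADD, GSDME, MLKL, OAS1, PYCARD, TNF and TNFRSF21 were named after their values were seen, and 1 listed gene is not reported here. Likeness used log2 CPM with a prior count of 2. Exons of all GENCODE 29 transcripts were merged. Alternatives were other scalings (library size only, upper quartile, DESeq2 1.42.0 size factors), the DESeq2 Wald test, other filters, a replicate block, the 8 libraries compared alone, glmTreat against 1.5-fold, a prior count of 2, leaving out each library and, added after seeing the data, the deposited factors per gene, where every library had 20 or more counts of the gene.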

Additional observations from a re-analysis of the deposited data

Results flagged for a closer look

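In 3 of 40 combinations of gene and group, 1 library stood apart from the other three by Dixon's criterion for groups of 4, which chance gives in about 1 of 20. These were TNFRSF10D in control replicate 1 (1.51 CPM, the others 1.79 to 1.85), TNFSF10 in EGF 12 h replicate 3 (23.6 CPM, the others 19.2 to 19.9) and CASP1 in control replicate 1 (27.6 CPM, the others 21.9 to 22.8).

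For each gene, the pair of EGF times with the lowest p in edgeR's test is given here. The adjusted p does not account for this choice of pair, so it does not show that every gene differed between times. The limit on the scaling of CFLAR applies to its value. From 12 to 48 h the log2 fold change moved by -1.49 for TNFRSF10A (adjusted p = 1.20e-08), -0.80 for FAS (adjusted p = 2.04e-05) and 1.21 for TNFSF10 (adjusted p = 5.83e-11). From 48 to 72 h it moved by 0.46 for TNFRSF10B (adjusted p = 4.26e-05). From 12 to 72 h it moved by -0.49 for TNFRSF10D (adjusted p = 0.00549) and 0.20 for CFLAR (adjusted p = 0.0144). From 24 h it moved by 0.28 for CASP8 by 48 h (adjusted p = 0.00267) and by 0.96 for CASP1 by 72 h (adjusted p = 2.25e-08).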

How the results depend on the processing

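Over the 56 member changes in the 7 main comparisons, the signs of called values were the same under every alternative except the factors per gene. These turned the called change of CFLAR at 12 h from -0.18 to 0.62. At 24 and 48 h CFLAR was not called with TMM scaling (-0.08 and -0.16) and was called higher with these factors (0.88 and 0.42). The origin of the factors was not tested. Of the 56, 48 kept their side of the threshold with library size only, 50 with upper quartiles, 54 with DESeq2's size factors, 54 with the DESeq2 Wald test, 53 with no filter beyond 1 count, 53 with at least 10 counts in every library, 50 with the 8 libraries compared alone, 44 with the factors per gene and all 56 with a prior count of 2. For 48 against 24 h, 3 members were called with library size only, upper quartiles, at least 10 counts in every library or the 8 libraries alone, and 3 to 6 when 1 library was left out. Against a 1.5-fold change (glmTreat), 34 of the 56 kept their side of the threshold and 22 calls were lost. Among those lost were CFLAR and CASP1 at 12 h, FAS at 24 and 72 h and TNFRSF10D at 24, 48 and 72 h against the control. By this test 4, 1 and 3 members were called at 24, 48 and 72 h against the control and 1 in each successive step. Of the 16522 genes tested, it called 5753, 3474, 1916 and 3899 against the control at 12, 24, 48 and 72 h. In the successive steps it called 2199, 1818 and 883. These are fewer because it asks for a larger change. The factors per gene, on 11956 genes, called 6336, 4334 and 6559 at 24, 48 and 72 h and 5835, 4993 and 3209 in the successive steps, with fewer genes tested. Scaling by library size only moved the median of all genes by -0.28 at 12 h and -0.14 at 24 h against the control, and the share of calls that were higher from 47.4 to 30.2% and from 49.6 to 36.3%. For the successive steps that share went from 51.9 to 68.6%, 51.5 to 71.8% and 50.0 to 33.8%. Upper quartiles moved the median by -0.16 at 12 h and 0.12 for 24 against 12 h, and the share to 37.2 and 66.1%. With the factors per gene, the share for 24 against 12 h was 39.2%. Replicate numbers are shared between groups. Libraries of the same number had correlations of -0.24 to 0.35 in their deviations (median 0.01), and those of other numbers -0.32 to 0.26 (median -0.00). For 8 of 20 libraries, the mean correlation with other groups was highest for their own number. This check does not settle whether libraries of the same number were paired. With the replicate block, 1 further member change was called, CFLAR from 48 to 72 h (0.18, adjusted p = 0.0446). Depth limits TNFRSF10D and TNFRSF10A most, since both were below 15 CPM in every library.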
